A study of Mus musculus with 12 samples.

Results

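Right and left ventricles of sham-operated mice were compared as 2 sham RV (right ventricle) arrays against 2 sham LV (left ventricle) arrays, 4 of the 12 arrays of the series. All 19938 genes with a probe set of their own were tested, and where a gene had several probe sets the one with the highest mean over the 12 arrays stood for it. The animals of every group were male C57BL/6 mice. Sham RV and sham LV were taken 3 weeks after a sham operation, at 15 weeks of age. PAC RV was right ventricle taken 1, 3 or 6 weeks after a haemoclip was closed around the pulmonary artery, at 13, 15 or 18 weeks of age. TAC LV was left ventricle taken 3 weeks after the aorta was clipped, at 15 weeks of age. PAC RV and TAC LV differed in operation as well as in chamber, so chamber and operation cannot be told apart between them. Each of the 6 groups held 2 arrays. Hearts were perfused and divided into left ventricle, septum and right ventricle, so the septum belonged to neither chamber sample. The labels do not say whether the 2 arrays of a group came from separate animals, or whether sham RV and sham LV were cut from the same hearts. The p-values therefore measure the spread between these arrays, which may be technical. All values are RMA levels on a log2 scale, differences are RV minus LV with the limma standard error (SE), and a gene passed at a Benjamini-Hochberg adjusted p of 0.05 over all genes.

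The right ventricle pumps into the low-resistance lung circulation, and the thicker left ventricle pumps into the systemic circulation at high pressure. In the embryo the right ventricle and outflow tract arise largely from the second heart field and the left ventricle largely from the first. Hand2 and Hand1, a pair of related transcription factors, mark the early right and left ventricle in the mouse embryo. Natriuretic peptides and skeletal actin are made at higher levels in ventricular muscle under raised load, and much of the atrial programme, such as the light chains Myl7 and Myl4, is low in adult ventricle.

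The 2 sham RV arrays stood apart from all other arrays of the series. On 5316 of 19938 genes, or 26.7%, both sham RV arrays lay outside the range of the 10 others, above it on 2845 (14.3%) and below it on 2471 (12.4%). The same count was 857 genes for sham LV, 1219, 417 and 634 for PAC RV at 1, 3 and 6 weeks, and 691 for TAC LV. The correlation of a sham RV array with any of the 10 others had a median of 0.9910 across genes, the pairs among those 10 had a median of 0.9947, and the sham RV arrays correlated with each other at 0.9956. The spread of levels within an array was also narrower in sham RV, with an SD over genes of 1.99 and 1.97, against 2.06 and 2.04 in sham LV. With genes in 4 equal bins of mean level, lowest to highest, the median difference of sham RV from sham LV was 0.09, 0.11, -0.03 and -0.10, and after cyclic loess scaling of the arrays it lay between -0.01 and 0.01 in every bin. What set these arrays apart was not tested. All 13 ventricular cardiomyocyte markers were measured, and 0 passed in sham RV against sham LV (0.411% of all genes). Their mean level was 13.31 and 13.33 on the sham RV arrays, against 13.36 and 13.33 on the sham LV arrays.

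**Figure D1:**
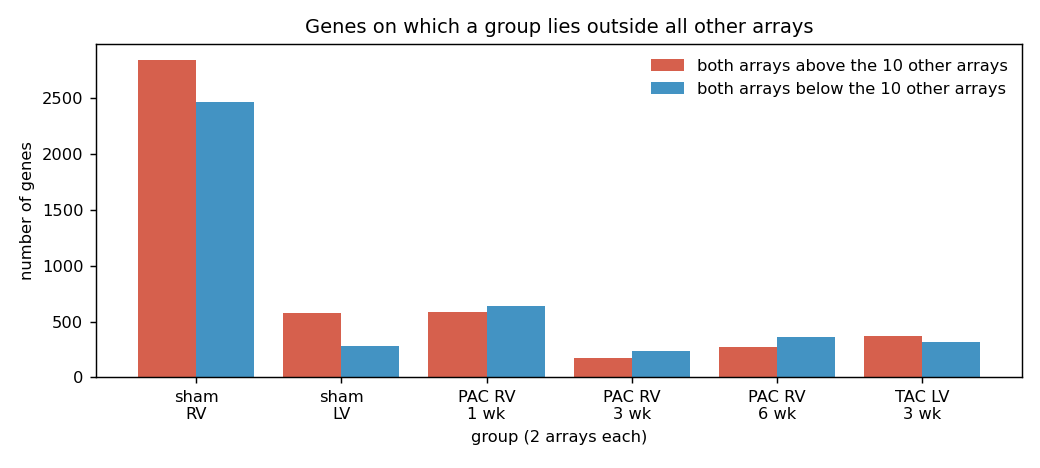
Number of genes (vertical axis) on which both arrays of a group lay above (red) or below (blue) all 10 other arrays, for the 6 groups of 2 arrays. Sham RV had 2845 genes above and 2471 below, and no other group had more than 1219 in all.

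In sham RV against sham LV, 82 of 19938 genes passed (0.411%), 15 of them higher in sham RV (0.0752%) and 67 lower (0.336%). Differences of the genes that passed ran in size from 0.46 to 2.12, with a median of 0.62, and 9 reached 2-fold. At an unadjusted p of 0.05 the same fit held 4123 genes (20.7%). Among them were genes of a neuronal surface protein and a Z-disc protein that were lower in sham RV, and of a secreted Wnt inhibitor and a secreted guidance ligand that were higher. In 78 of the 82 genes both sham RV arrays lay beyond all 10 other arrays, beside 26.7% of all genes, although the sham arrays chose the 82. The exceptions were Myot, Olfr1033, Polq and Sort1. The number of calls rested on single arrays. It was 132 without sham RV array 1, 5 without sham RV array 2, 4 without sham LV array 1 and 0 without sham LV array 2, where 3279 genes had an unadjusted limma p under 0.05. It was 252, 41, 38 and 11 with 1 array fewer of PAC RV at 1, 3 and 6 weeks and of TAC LV, which enter only through the shared estimate of spread. Cyclic loess scaling also gave 82 genes, with 28 higher and 54 lower and 55 shared with the 82 above. None of the 82 genes changed sign in any of the settings tried, but most settings could not change it. In all 82 the sham RV and sham LV arrays did not overlap, so leaving out 1 array could not turn the sign. Only the scalings and the mean over probe sets could do so. With 2 arrays a side the smallest two-sided p of an exact permutation test is 0.33, so the gene p-values come from the moderated fit alone.

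Nrn1, which encodes the small membrane-anchored neuronal protein neuritin, had the largest difference of the genes that passed. Its level was 6.18 and 6.15 on the sham RV arrays, against 8.18 and 8.38 on the sham LV arrays. Both sham RV values lay close to the level of probe sets without a gene, whose array medians ran from 5.65 to 5.79, so Nrn1 was well measured in left ventricle and low in right. The difference was -2.12 ± 0.19, a 4.34-fold lower level (limma adjusted p = 0.0063, n = 2 each), and it passed in 8 of 8 other settings and in 11 of 12 fits that left out 1 array, the exception being sham LV array 2. Myot encodes myotilin, which binds alpha-actinin and filamin at the Z-disc of striated muscle. Myot was at 8.68 and 9.13 in sham RV, against 10.08 and 10.12 in sham LV. The sham arrays did not overlap, and the spread was wider in sham RV, with an SD of 0.31 against 0.03. The difference was -1.20 ± 0.15, or 2.29-fold lower (limma adjusted p = 0.019), and the call was lost without sham LV array 1 or sham LV array 2.

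**Figure D2:**
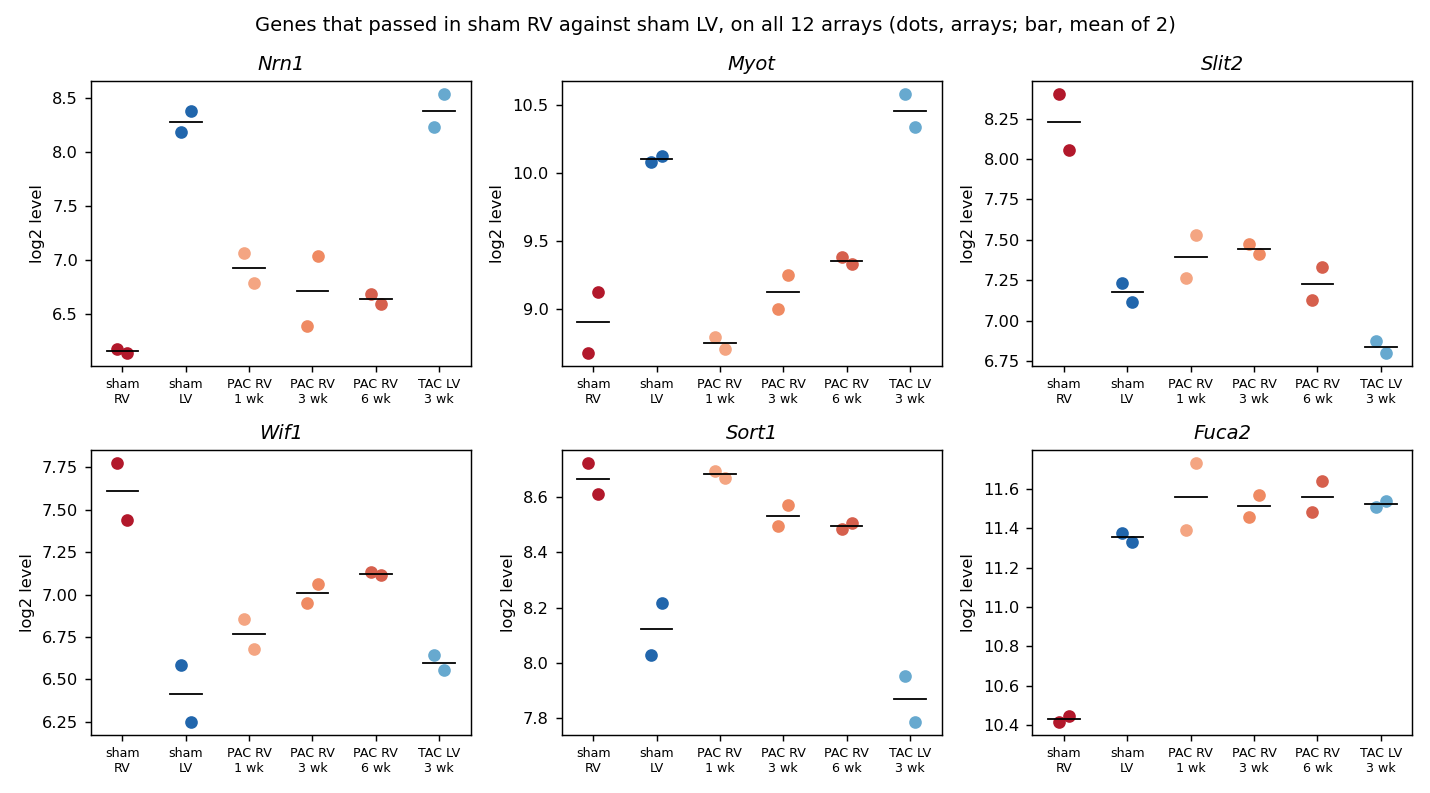
Log2 level (vertical axis) of 6 genes that passed in sham RV against sham LV, with 1 dot per array and a bar at the mean of the 2 arrays of each of the 6 groups. Nrn1 and Myot were low and Sort1 was high on all 8 RV arrays, whereas Fuca2 was low on the 2 sham RV arrays only.

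Nrn1 and Myot also differed between PAC RV and TAC LV, whose arrays entered the sham test only through the shared estimate of spread. Nrn1 was at 6.39 and 7.04 in PAC RV at 3 weeks, against 8.23 and 8.54 in TAC LV, and over all 6 PAC RV arrays it ran from 6.39 to 7.07. Myot was at 8.999 and 9.249 in PAC RV at 3 weeks, against 10.58 and 10.34 in TAC LV. For both genes every one of the 8 RV arrays lay below every one of the 4 LV arrays. The PAC RV minus TAC LV differences were -1.67 ± 0.19 for Nrn1 and -1.33 ± 0.15 for Myot (limma adjusted p = 0.016 each).

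The other genes named as lower in sham RV were of mixed function. Rida, a deaminase that clears reactive imines from amino acid metabolism, was at 7.55 and 7.12 in sham RV, against 8.33 and 8.50 in sham LV (-1.08 ± 0.14, limma adjusted p = 0.019). Chac2, which degrades glutathione, had levels of 7.69 and 7.30 in sham RV, against 8.30 and 8.40 in sham LV (-0.86 ± 0.13, adjusted p = 0.031). In both, no sham RV array reached the lower sham LV array, and all 8 RV arrays lay below all 4 LV arrays. Sdhaf4, an assembly factor of succinate dehydrogenase, differed by -0.91 ± 0.12 on the probe set used (adjusted p = 0.019) and by 0.27 on its other probe set, so its 2 probe sets disagreed. Idi1, the isopentenyl diphosphate isomerase of cholesterol synthesis, differed by -0.77 ± 0.10 (adjusted p = 0.020) and by -0.70 on its second probe set.

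Fuca2, a secreted alpha-fucosidase, had close agreement between the 2 arrays of each chamber. It was at 10.42 and 10.45 in sham RV, against 11.38 and 11.33 in sham LV (-0.92 ± 0.11, limma adjusted p = 0.019). The PAC RV arrays, from 11.39 to 11.73, and the TAC LV arrays, at 11.51 and 11.54, lay with or above sham LV, so the low level of Fuca2 was seen on the sham RV arrays alone. C1galt1c1, a chaperone of the enzyme that extends O-glycans (-0.87 ± 0.12), Psmd14, the deubiquitinase of the proteasome lid (-0.80 ± 0.12), Rdh14, a retinol dehydrogenase (-0.81 ± 0.10), and the transmembrane protein gene Tmem71 (-0.85 ± 0.10) likewise had both sham RV arrays below all 10 others. Lrrcc1, a centrosomal protein gene, was at 6.73 and 6.92 in sham RV, against 7.77 and 7.71 in sham LV (-0.92 ± 0.13, adjusted p = 0.027). Of 412 measured genes with Zfp, Zbtb, Zkscan or Zscan names, a grouping made after the values were seen, 6 passed as lower and 0 as higher, beside 0.336% of all genes lower. Of these, Zfp931 was at 7.42 and 6.88 in sham RV, against 8.34 and 8.50 in sham LV (-1.27 ± 0.15, adjusted p = 0.019), Zfp758 differed by -0.93 ± 0.13 and Zfp942 by -0.80 ± 0.12. The sham RV arrays lay below all others in each of the 3 named, and related zinc finger genes can share probe sequence.

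Cav1, Cav2 and Thbd were also among the 67 that were lower, and were picked out after their values were seen. Cav1 and Cav2, which form caveolae, differed by -0.61 ± 0.09 and -0.51 ± 0.09 (limma adjusted p = 0.031 and 0.045). Thbd, the endothelial thrombin receptor thrombomodulin, was at 8.70 and 8.63 in sham RV, against 9.27 and 9.25 in sham LV. Bulk tissue cannot tell fewer cells of a type from less RNA per cell. The 20 endothelial markers had a mean level of 9.17 and 9.20 in sham RV, against 9.26 and 9.28 in sham LV. Of them 0 passed (0.411% of all genes). Their part in these values was not tested. In PAC RV against TAC LV at 3 weeks Cav1 differed by -0.12 and Thbd by 0.01.

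Vamp3, Vamp7, Rheb, Plk2 and Aqp8, also among the 67, were likewise picked out after their values were seen. Vamp3 and Vamp7 encode SNARE proteins of endosomes and lysosomes. Vamp7 was at 8.02 and 7.82 in sham RV, against 8.53 and 8.63 in sham LV, and the differences were -0.66 ± 0.11 for Vamp7 and -0.53 ± 0.09 for Vamp3 (limma adjusted p = 0.045 each). Rheb, the small GTPase that activates mTORC1, was at 9.70 and 9.34 in sham RV, against 10.13 and 10.39 in sham LV (-0.74 ± 0.13, adjusted p = 0.047). Plk2, a polo-like kinase, was at 8.70 and 8.69 in sham RV, against 9.31 and 9.24 in sham LV (-0.58 ± 0.09). In each of these 4 both sham RV arrays lay below the 10 others, and the obstructed differences lay between -0.16 and -0.03. Aqp8, a water channel gene, differed from them in having a larger obstructed difference. It was at 5.90 and 6.04 in sham RV, against 6.62 and 6.81 in sham LV (-0.75 ± 0.13), and at 6.74 and 6.50 in PAC RV at 3 weeks, against 7.31 and 7.69 in TAC LV (-0.88 ± 0.13, adjusted p = 0.13).

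Among the 15 genes that were higher in sham RV, Wif1 and Slit2 led those that encode known proteins. Wif1 encodes a secreted protein that binds Wnt ligands and keeps them from their receptors. Its level was 7.78 and 7.44 in sham RV, against 6.58 and 6.25 in sham LV, a difference of 1.19 ± 0.14 or 2.29-fold (limma adjusted p = 0.019). All 8 RV arrays, from 6.68 to 7.78, lay above all 4 LV arrays, from 6.25 to 6.64, and the PAC RV minus TAC LV difference at 3 weeks was 0.41 ± 0.14 (adjusted p = 0.58). Slit2 encodes a secreted ligand of the Robo receptors, known from axon guidance. Its level was 8.40 and 8.06 in sham RV, against 7.24 and 7.12 in sham LV (1.05 ± 0.13, adjusted p = 0.019). At 3 weeks Slit2 was at 7.48 and 7.42 in PAC RV, against 6.88 and 6.80 in TAC LV, again with no overlap, but the lowest of the PAC RV arrays, at 7.13, lay within the sham LV range. The Wif1 and Slit2 calls were lost without sham LV array 2, and the Slit2 call also without sham LV array 1.

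The promoters are shown of these 2 secreted factors, which passed in the sham comparison, and of Bex1, which passed between the obstructed ventricles only. They are RefSeq sequences of GRCm38.p6, windows of 300 bases that reach from upstream of the annotated start to just past it, and lie at chr5:47982905-47983204 on the + strand for Slit2, chr10:121033754-121034053 on the + strand for Wif1 and chrX:136215464-136215763 on the - strand for Bex1. Capitals mark the E-box CANNTG, bound by basic helix-loop-helix factors such as Hand2, and the TATA box TATAAA, each searched on both strands with no overlap between them here.
Slit2: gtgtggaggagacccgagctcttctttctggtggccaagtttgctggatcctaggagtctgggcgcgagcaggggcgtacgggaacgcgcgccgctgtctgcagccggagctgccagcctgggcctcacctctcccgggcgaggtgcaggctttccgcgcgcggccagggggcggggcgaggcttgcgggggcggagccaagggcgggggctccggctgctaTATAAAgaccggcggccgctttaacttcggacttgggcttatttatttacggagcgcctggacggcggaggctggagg
Wif1: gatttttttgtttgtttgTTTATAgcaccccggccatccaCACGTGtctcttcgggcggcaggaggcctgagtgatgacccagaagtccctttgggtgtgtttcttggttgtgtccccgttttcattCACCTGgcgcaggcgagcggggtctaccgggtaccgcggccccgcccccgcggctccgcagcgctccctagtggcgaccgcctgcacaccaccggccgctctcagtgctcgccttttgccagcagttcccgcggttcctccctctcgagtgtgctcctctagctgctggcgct
Bex1: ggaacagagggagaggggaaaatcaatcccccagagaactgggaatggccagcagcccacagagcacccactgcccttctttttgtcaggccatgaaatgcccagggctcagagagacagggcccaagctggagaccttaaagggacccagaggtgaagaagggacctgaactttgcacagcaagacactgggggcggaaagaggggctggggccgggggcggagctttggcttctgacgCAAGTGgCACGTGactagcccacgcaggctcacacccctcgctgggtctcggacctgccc
Wif1 and Bex1 held 2 E-boxes each and Slit2 held 0, and 72.3% of 32851 promoters of the same length hold at least 1. The TATA box letters were found in Slit2 and Wif1, and in 13.6% of all promoters. The T-box letters AGGTGT and the GATA letters AGATAA, present in 13.7% and 11.2% of all promoters, were found in 0 of the 3 windows.

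Sort1, the sorting receptor sortilin, had RV minus LV differences of like size in the sham and in the obstructed ventricles. It was at 8.72 and 8.61 in sham RV, against 8.03 and 8.22 in sham LV (0.54 ± 0.10, limma adjusted p = 0.045). It was at 8.50 and 8.57 in PAC RV at 3 weeks, against 7.95 and 7.79 in TAC LV (0.66 ± 0.10, adjusted p = 0.098). All 8 RV arrays lay above all 4 LV arrays. Yet the sham call was lost when any 1 array was left out, other than a PAC RV 1 week array. Prkcz, an atypical protein kinase C, was at 7.56 and 7.54 in sham RV, against 6.70 and 7.02 in sham LV (0.69 ± 0.11, adjusted p = 0.036). Its second probe set differed by -0.03, and its obstructed difference was -0.04.

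The rest of the named genes that were higher in sham RV had small transcripts or low levels. Atp5e, the epsilon subunit of the mitochondrial ATP synthase, was at 10.74 and 10.77 in sham RV, against 10.23 and 10.07 in sham LV (0.60 ± 0.10, limma adjusted p = 0.045). Grcc10 differed by 0.61 ± 0.11, Ang6, of the angiogenin family of ribonucleases, by 0.52 ± 0.09, and the protease inhibitor gene Eppin by 0.47 ± 0.08. An immunoglobulin kappa variable segment and Krt86, a hair keratin gene, passed with both chamber means below the level of probe sets without a gene and are given no fold. The other 5 genes that passed as higher, named after their values were seen, were all small non-coding RNAs: Rny1, Rpph1, Snora16a, Snord15b and n-R5s136. They belong to the Y RNA, RNase P, snoRNA and ribosomal 5S classes. Rpph1, the RNA of RNase P, was at 12.38 and 12.58 in sham RV, against 11.84 and 11.45 in sham LV (0.84 ± 0.13). The obstructed difference of these 5 lay between -0.26 and 0.06. The sham RV arrays were above all 10 others in each, and in Atp5e, Grcc10, Ang6, Eppin, Krt86 and the immunoglobulin segment.

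Fewer genes passed between the obstructed ventricles. PAC RV against TAC LV at 3 weeks, which shares with the sham comparison the estimate of spread but none of the arrays compared, had 4 genes that passed (0.0201%), all lower in PAC RV, and 1470 genes (7.37%) at an unadjusted p of 0.05. They were Nrn1, Myot, Bex1 and B3galt2. Bex1, a small gene of the brain-expressed X-linked family, was at 4.25 and 4.31 in PAC RV, against 5.75 and 6.05 in TAC LV (-1.62 ± 0.18, limma adjusted p = 0.016). In the sham hearts Bex1 was at 4.11 and 3.99 in sham RV, against 5.03 and 4.90 in sham LV (adjusted p = 0.052), all below the level of probe sets without a gene, and no difference is given. B3galt2, a galactosyltransferase of glycan chains, was at 7.86 and 7.75 in PAC RV, against 8.86 and 8.76 in TAC LV (-1.01 ± 0.11). The sham difference of B3galt2 was -0.35 ± 0.11 (adjusted p = 0.12). The count of 4 was 12 without PAC RV 3 weeks array 1, 1 without PAC RV 3 weeks array 2, 2 without either sham RV array and 0 without either TAC LV array.

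Of the 82 sham chamber genes, 65 (79.3%) had the same sign between the obstructed ventricles, beside 52.1% of all genes. The share differed by direction, with 59 of the 67 lower genes and 6 of the 15 higher genes keeping their sign. The median obstructed difference was -0.16 for the lower genes and -0.04 for the higher genes, beside sham medians of -0.62 and 0.69. In 29 of the 82 (35.4%) all 6 PAC RV arrays lay beyond both TAC LV arrays on the side of the sham difference, beside 7.88% of all genes. In 21 of the 82 all 8 RV arrays lay beyond all 4 LV arrays, beside 2.38% of all genes (0.537% higher and 1.85% lower in RV), although the sham arrays of such genes were part of the choice. The 2 that were higher in RV were Wif1 and Sort1. The 19 that were lower in RV, named after their values were seen, held Nrn1, Myot, Rida, Sdhaf4 and Chac2, the zinc finger genes Zfp758, Zfp931 and Zfp938, and Insig2, an inhibitor of sterol synthesis in the endoplasmic reticulum. They also held Polq, a DNA polymerase of end joining, the mitochondrial genes Lyrm2 and Pnpt1, and Cbwd1, Dnajc12, Lamtor3, Pno1, Strip2, Tbc1d19 and Tmbim4. Polq was at 6.31 and 6.30 in sham RV, against 6.85 and 6.84 in sham LV, and at 6.30 and 6.47 in PAC RV, against 6.91 and 6.93 in TAC LV. Its differences were -0.54 ± 0.09 and -0.54 ± 0.09, and only the sham one passed.

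**Figure D3:**
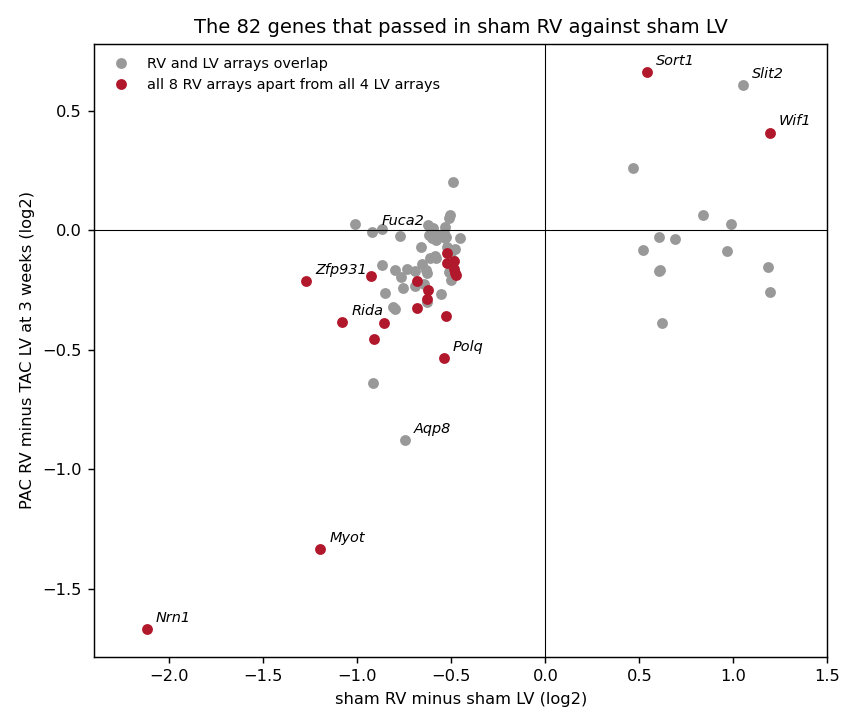
PAC RV minus TAC LV at 3 weeks (vertical axis, log2) against sham RV minus sham LV (horizontal axis, log2) for the 82 genes that passed in the sham comparison. Red dots are the 21 genes on which all 8 RV arrays lay apart from all 4 LV arrays. Nrn1 and Myot lie at the lower left, and most other genes lie near 0 on the vertical axis.

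Of the 41 measured cardiac transcription factors 0 passed, a share near the 0.411% of all genes. An unadjusted limma p under 0.05 was held by 8, beside 20.7% of all genes. Both sham RV arrays lay above both sham LV arrays in 20 of the 41, beside 29.3% of all genes, and below in 9, beside 26.1% of all genes. The right ventricular factor Hand2 was at 8.06 and 8.12 in sham RV, against 7.80 and 7.69 in sham LV (0.34 ± 0.09, limma adjusted p = 0.09). The left ventricular factor Hand1 differed by 0.06 ± 0.11, Tbx5 by 0.12 ± 0.11, Tbx20 by 0.01 ± 0.12, Gata4 by 0.11 ± 0.11 and Nkx2-5 by 0.06 ± 0.09. Hey2, a Notch target of compact muscle, differed by 0.34 ± 0.14 (adjusted p = 0.20), Cited1 by 0.26 and Mef2c by -0.23 ± 0.08. The Iroquois factors had negative differences that did not pass. Irx5, which represses Kcnd2 in mouse ventricle, was at 6.87 and 6.79 in sham RV, against 7.24 and 7.58 in sham LV (-0.58 ± 0.17, adjusted p = 0.11), and Irx4 and Irx3 differed by -0.15 ± 0.10 and -0.09 ± 0.13. On Irx5 the 8 RV arrays lay below the 4 LV arrays, and its obstructed difference was -0.64 ± 0.17. Of the 22 measured genes of the second heart field and outflow list 0 passed (0.411% of all genes). Their median difference was 0.02, a sign that turned when array medians were subtracted.

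Kcnd2 encodes Kv4.2, a subunit of the fast transient outward potassium current of mouse ventricle, and had the largest difference of the 25 measured potassium channel genes. It was at 9.57 and 9.33 in sham RV, against 8.77 and 8.59 in sham LV (0.77 ± 0.19, limma adjusted p = 0.074), and the PAC RV minus TAC LV difference was 0.50 ± 0.19. Both sham RV arrays lay above the 10 others. Its auxiliary subunit Kcnip2 differed by -0.26 ± 0.23, Kcna5 by 0.11 and Kcnv2 by 0.12. Kcna4, of the slow transient outward current, was at 5.84 and 5.39 in sham RV, against 6.25 and 6.26 in sham LV (-0.64 ± 0.16), and Kcnc4 differed by 0.48 ± 0.13. Among 20 conduction genes Etv1, a transcription factor of fast-conducting muscle, was at 8.42 and 8.28 in sham RV, against 7.95 and 7.87 in sham LV (0.44 ± 0.10, adjusted p = 0.069), and Pcp4, known from Purkinje cells, differed by 0.93 ± 0.26. The potassium channel and conduction lists had 0 genes that passed. At an unadjusted limma p under 0.05 they held 3 and 5 genes, beside 20.7% of all genes.

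Genes of the load response had mostly negative differences in sham RV against sham LV, and 0 of 22 passed (0.411% of all genes). At an unadjusted limma p under 0.05 there were 10, beside 20.7% of all genes. Of the 22, 16 had negative differences and in 15 both sham RV arrays lay below both sham LV arrays, beside 26.1% of all genes. The median difference was -0.43, beside 0.02 over all genes, and it was -0.39 without sham LV array 2 and between -0.47 and -0.33 under the scalings tried. Nppb, the B-type natriuretic peptide gene, was at 9.14 and 10.13 in sham RV, against 11.50 and 11.77 in sham LV. Nppa, the atrial natriuretic peptide gene, was at 10.98 and 10.68 in sham RV, against 12.05 and 13.00 in sham LV. The lower sham LV array lay more than 1 log2 unit above both sham RV arrays in each, and the chambers did not overlap. The SD over 2 arrays was 0.70 in sham RV and 0.19 in sham LV for Nppb, and 0.21 and 0.67 for Nppa. The differences were -2.00 ± 0.42 for Nppb and -1.69 ± 0.38 for Nppa (limma adjusted p = 0.057 and 0.066).

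The contractile genes of the same response also had large negative differences. Acta1, skeletal alpha-actin, was at 9.91 and 10.90 in sham RV, against 12.02 and 11.72 in sham LV (-1.46 ± 0.31, limma adjusted p = 0.061). Myh7, the beta myosin heavy chain, was at 9.45 and 10.06 in sham RV, against 10.99 and 10.79 in sham LV (-1.13 ± 0.42, adjusted p = 0.17). Myh6, the alpha myosin heavy chain that predominates in adult mouse ventricle, differed by 0.01 ± 0.07, a direction that turned when array medians were subtracted, and the ventricular light chain Myl2 differed by 0.05 ± 0.08. Ankrd1, a stretch-responsive repeat protein of the titin region, differed by -0.74 ± 0.22 and Mybpc2 by -0.72 ± 0.20. With 1 PAC RV 1 week array fewer, Nppb, Nppa, Acta1 and Mybpc2 passed. Between the obstructed ventricles the median of the 22 genes was -0.06, with Nppb at -0.57 ± 0.42, Acta1 at -0.81 ± 0.31, Nppa at 0.47 ± 0.38 and Myh7 at -0.09 ± 0.42.

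Of the 12 listed atrial muscle genes, all measured, 8 had negative and 4 had positive differences in sham RV against sham LV. Both sham RV arrays lay below both sham LV arrays in 6 of them, beside 26.1% of all genes. They lay above both in 1, beside 29.3% of all genes. Myl7, the atrial regulatory light chain, was at 8.13 and 5.93 in sham RV, against 8.59 and 10.90 in sham LV, and Myl4, the atrial essential light chain, was at 8.35 and 7.16, against 8.89 and 11.07. Sln, the atrial calcium pump regulator sarcolipin, was at 5.92 and 5.72 in sham RV, against 6.54 and 7.73 in sham LV. Sham LV array 2 was the highest of the 4 in all 3, and sham RV array 2 the lowest. The differences were -2.71 ± 0.80, -2.22 ± 0.66 and -1.31 ± 0.38 (limma adjusted p = 0.11 each), so Myl7 had the largest difference of any gene without passing. Of the 12 atrial genes 0 passed, and 5 had an unadjusted limma p under 0.05, beside 20.7% of all genes. Nppa is one of these 12 and also one of the load response genes, so the lists are not separate. The 12 had a mean level of 8.09 and 7.67 in sham RV, against 8.29 and 9.07 in sham LV. RMA levels have no zero. Bmp10, a defining atrial factor, was at 4.28 and 4.64 in sham RV, against 4.47 and 4.42 in sham LV, below the level of probe sets without a gene. The median difference of the list was -0.39, and it was -0.61 without sham LV array 1 and -0.16 without sham LV array 2. Between the obstructed ventricles the median had the opposite sign, at 0.45. There the mean level of the 12 was 8.61 and 9.40 in PAC RV at 3 weeks, against 8.40 and 8.40 in TAC LV. Without sham LV array 2 Nppa differed by -1.21 and Nppb by -1.87. The part of atrial tissue in the Nppa and Nppb values was not tested.

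**Figure D4:**
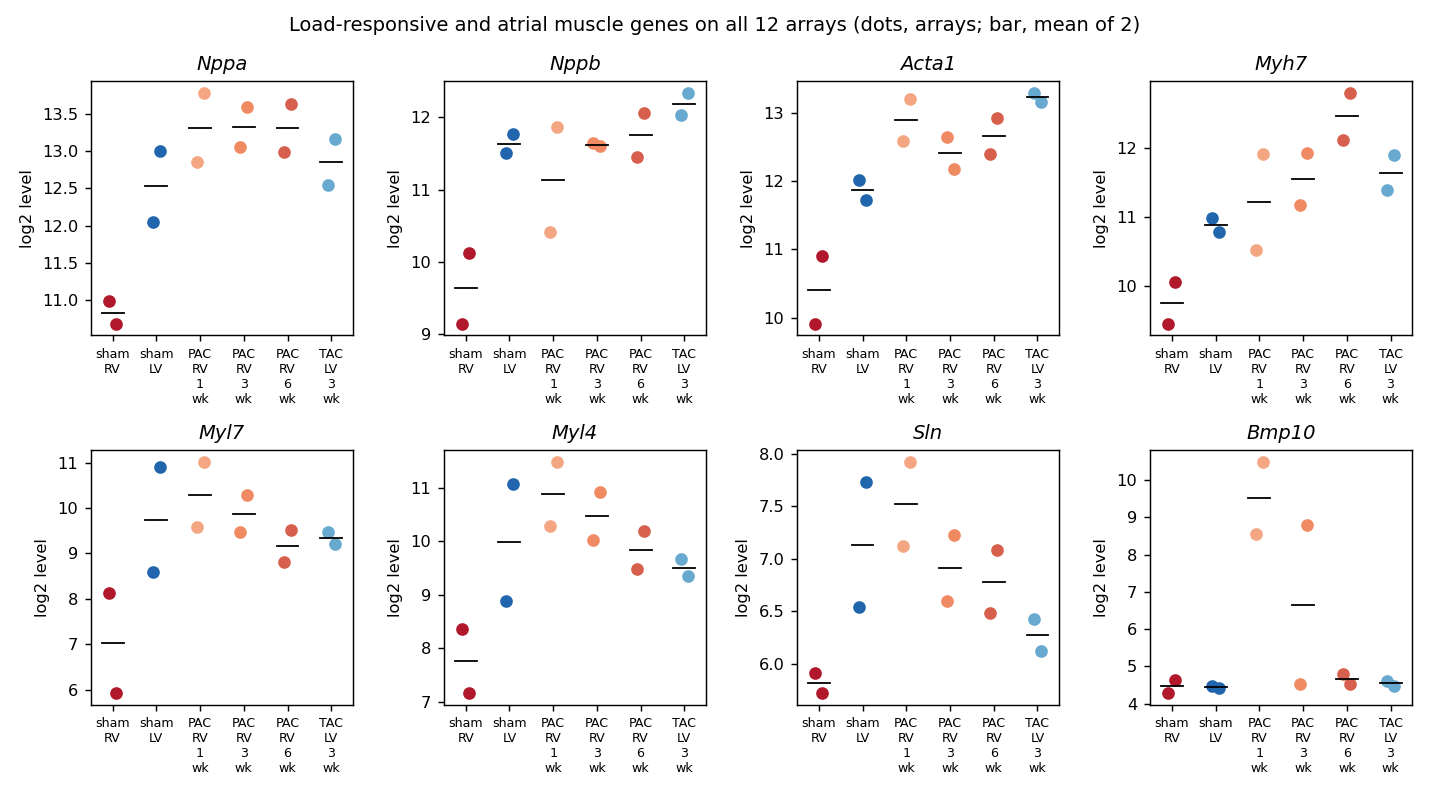
Log2 level (vertical axis) of 4 load-responsive genes (top) and 4 atrial muscle genes (bottom), with 1 dot per array and a bar at the mean of the 2 arrays of each of the 6 groups. The sham RV arrays are the lowest in Nppa, Nppb, Acta1 and Myh7, and sham LV array 2 is far above its mate in Myl7, Myl4 and Sln.

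Of 29 measured sarcomere genes Myot passed as lower (0.336% of all genes) and 0 as higher, and the list held Acta1 and Myh7 with the larger differences given above. Mybpc3, the cardiac myosin-binding protein C, was at 12.77 and 12.82 in sham RV, against 13.22 and 13.22 in sham LV (-0.43 ± 0.08), and missed the threshold at an adjusted p that rounds to 0.05. In calcium cycling 0 of 23 passed (0.411% of all genes), and Sln, described above, is one of the 23. Sri, which encodes sorcin, a regulator of the calcium release channel, differed by -0.44 ± 0.11 and Slc8a1, the sodium-calcium exchanger, by -0.32 ± 0.09. In the respiratory chain list 0 of 45 passed, and 9 had an unadjusted limma p under 0.05, beside 20.7% of all genes. Atp5e, the ATP synthase subunit gene that passed as higher in sham RV, was not on this list. The 2 largest differences in the list were positive. Cox8b was at 12.92 and 13.08 in sham RV, against 12.54 and 12.44 in sham LV (0.51 ± 0.10), and Cox4i1 at 12.39 and 12.38, against 11.998 and 11.794 (0.49 ± 0.09). Both are subunits of cytochrome c oxidase, both missed the threshold at a limma adjusted p that rounds to 0.05, and their obstructed differences were -0.03 and -0.04. The medians of these 3 lists were -0.04, 0.00 and -0.02, and those of the sarcomere and respiratory chain lists changed sign between scalings.

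In fuel use, 0 of 31 fatty acid oxidation genes and 0 of 21 glycolysis genes passed. At an unadjusted limma p under 0.05 these lists held 3 and 6 genes, beside 20.7% of all genes. Slc2a1, the glucose transporter GLUT1, was at 8.18 and 8.08 in sham RV, against 8.80 and 8.70 in sham LV (-0.62 ± 0.16, limma adjusted p = 0.081). Hk2, the hexokinase of insulin-responsive muscle, differed by -0.27 ± 0.08, and Pdk4, which restrains pyruvate oxidation, by 0.47 ± 0.23. The median was 0.08 for fatty acid oxidation, from 0.05 to 0.15 under the scalings tried, and leaving out the first or the second sham RV array gave 0.04 and 0.13. The median was -0.12 for glycolysis, from -0.16 to -0.04 under the scalings, and -0.07 without sham RV array 2 or without sham LV array 2. Nqo1, a quinone reductase of the oxidative stress response, was at 8.62 and 8.70 in sham RV, against 9.41 and 9.36 in sham LV (-0.73 ± 0.15, adjusted p = 0.054), with all 8 RV arrays below all 4 LV arrays. Sod1, the cytosolic superoxide dismutase, differed by 0.36 ± 0.08 (adjusted p = 0.068).

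Of 57 measured matrix genes 0 passed in either comparison, and their medians had opposite signs. In the sham ventricles 44 had negative differences, 2 had an unadjusted limma p under 0.05 (20.7% of all genes), and the median was -0.15. That median was -0.04 without sham LV array 1 and -0.26 without sham LV array 2, and between -0.19 and -0.06 under the scalings tried, while the obstructed median was 0.52. Postn, the matricellular protein periostin, was at 7.87 and 8.25 in sham RV, against 9.37 and 8.65 in sham LV, and at 11.01 and 11.35 in PAC RV at 3 weeks, against 9.92 and 10.20 in TAC LV. Its differences were -0.95 ± 0.51 and 1.12 ± 0.51 (limma adjusted p = 0.32 and 0.68). Aspn differed by -0.95 ± 0.29 and Lum by -0.62 ± 0.21 in the sham ventricles, both small leucine-rich proteoglycan genes. The 18 fibroblast markers had a mean level of 8.83 and 8.77 in sham RV, against 9.16 and 8.86 in sham LV. Of them 0 passed (0.411% of all genes). Their part in the matrix values was not tested.

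Signalling and cell type lists added 1 gene that passed, Wif1, which stood in the list of Wnt, BMP and TGF-beta genes (49 measured) and in that of valve interstitial markers (13 measured). Sfrp4, another secreted Wnt modulator, was at 4.87 and 5.01 in sham RV, against 4.39 and 4.39 in sham LV (limma adjusted p = 0.074). Sfrp4 and Rspo3, a secreted Wnt enhancer, lay below the level of probe sets without a gene, and no difference is given for them. Chrdl1, a secreted BMP inhibitor, differed by 0.41 ± 0.12. Sox9, a transcription factor of valve and cartilage cells, was at 7.07 and 7.19 in sham RV, against 6.88 and 6.54 in sham LV (0.42 ± 0.12), and all 8 RV arrays lay above all 4 LV arrays. The mean level of the valve markers was 6.42 and 6.37 in sham RV, against 6.25 and 6.20 in sham LV. Of the 13, 9 had positive and 4 had negative differences, and 4 lay below the level of probe sets without a gene. The other defining markers named, Col9a1 and Col2a1, differed by 0.31 and 0.20. The part of the valve markers in the Wif1 difference was not tested.

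Over all 34 gene lists, 654 of 709 listed genes were measured and 2 passed, Myot and Wif1, beside 0.411% of all genes. The 31 lists that held 0 genes that passed had unadjusted counts between 0 and 10 genes. Vwf, the von Willebrand factor of endothelium and endocardium, was at 8.60 and 8.38 in sham RV, against 8.01 and 7.88 in sham LV (0.54 ± 0.28, limma adjusted p = 0.30). It was also above all 4 LV arrays on all 8 RV arrays. Its 2 lists had medians of opposite sign, but neither was firm. Of the 20 endothelial markers 16 had negative and 4 had positive differences. Their median was -0.13, and -0.03 after cyclic loess scaling. Of the 10 endocardial markers 2 had negative and 8 had positive differences. Their median was 0.09, and it was -0.0007 without sham RV array 1 and -0.04 without sham LV array 1. An unadjusted limma p under 0.05 was held by 3 endothelial and 0 endocardial markers, beside 20.7% of all genes. Lung, thymus and great vessel markers, which would mark tissue cut along with the ventricle, had a mean level of 5.22 and 5.23 in sham RV, against 4.99 and 5.16 in sham LV, and 9 of the 13 lay below the level of probe sets without a gene. The epicardial markers averaged 6.88 and 6.42 in sham RV, against 6.52 and 6.57 in sham LV. The 4 genes listed as candidates of the study, Clu, Nbl1, Anxa7 and Fnbp1, differed by -0.25, 0.10, -0.23 and 0.08, and Penk, the enkephalin precursor, by 0.30 ± 0.21.

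**Figure D5:**
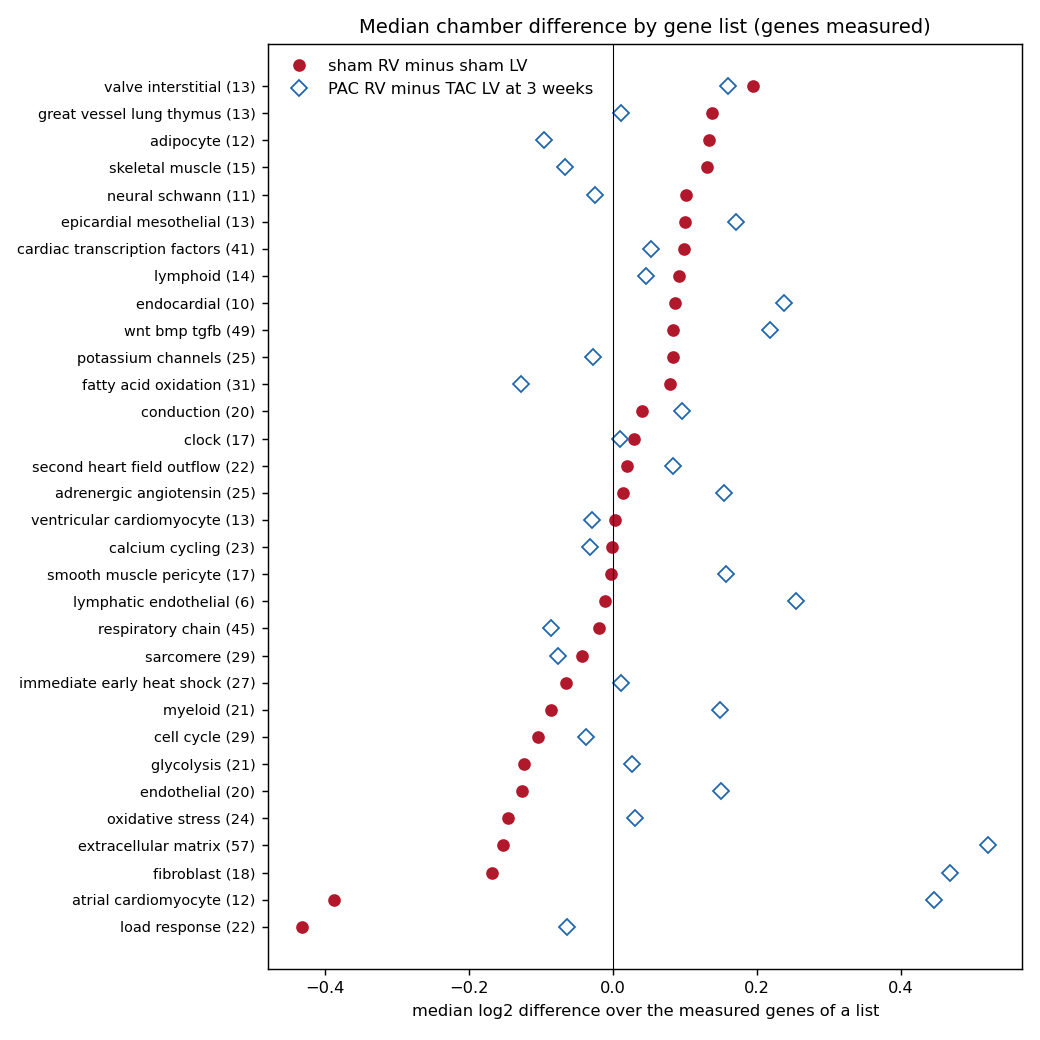
Median log2 difference over the measured genes of each list with at least 5 measured genes, for sham RV minus sham LV (filled circles) and PAC RV minus TAC LV at 3 weeks (open diamonds). The load response and atrial lists have the lowest sham medians, -0.43 and -0.39, and the matrix list has the highest obstructed median, 0.52.

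No gene passed in the test of whether the PAC RV minus TAC LV difference differed from the sham RV minus sham LV difference. In that test 0 of 19938 genes passed, and 2381 genes or 11.9% had an unadjusted limma p under 0.05. Of the 82 sham chamber genes, 73 had an unadjusted p under 0.05 in that test, which reuses the sham arrays that chose them. The difference of differences was 0.45 ± 0.27 for Nrn1 and -0.14 ± 0.20 for Myot, and it was -0.78 ± 0.19 for Wif1 and -0.45 ± 0.19 for Slit2 (limma adjusted p from 0.35 to 0.80). The 5 genes with the smallest p were Unc80, Kctd12b, Fuca2, Mptx1 and the immunoglobulin segment named as higher above. Unc80, a subunit of a sodium leak channel complex, was at 6.03 and 5.90 in sham RV, against 5.33 and 5.52 in sham LV, and at 5.25 and 5.18 in PAC RV at 3 weeks, against 5.59 and 5.77 in TAC LV. Apart from the sham RV arrays, these Unc80 values lay within or below the 5.65 to 5.79 of probe sets without a gene, so no difference is given (interaction adjusted p = 0.35). Kctd12b was at 7.54 and 7.50 in sham RV, against 8.01 and 8.01 in sham LV, and at 8.53 and 8.51 in PAC RV at 3 weeks, against 8.30 and 8.35 in TAC LV. Both sham RV arrays lay beyond all 10 other arrays in each of these 5 genes, beside 26.7% of all genes, although the sham arrays entered their choice.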

How the data were processed

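The deposited values were log2 expression levels per probe set, made by the authors with RMA in Affymetrix Power Tools, per the submitters' processing notes. No source used here gives the software versions or a genome build. Of 35556 probe sets, 21789 were listed with 1 gene, 1621 with several and 12146 with none. The 21789 gave 19938 genes, 91 probe sets having a gene missing from the reference table and kept under the listed name. For 999 genes with several probe sets the one with the highest mean was used. All 12 arrays entered 1 limma fit of group means (limma 3.58.1, R 4.3.3; 6 residual and 4.6 prior degrees of freedom, median SE 0.112 for a pair of groups and 0.159 for the interaction). The fit was checked on simulated data with independent noise for each gene and array. These data held no shift of whole arrays like that of sham RV, so the check does not cover it. With 2 arrays per group, the number of arrays limits the precision. The members, the 34 gene lists and the tests were chosen with earlier results of these data known. Named were up to 15 genes that passed per direction with arrays that did not overlap, ranked by log2 difference and filled to 10 by smallest p where fewer passed, up to 4 genes per list, a fixed panel of chamber, load and channel genes, and the 5 smallest p of the interaction. Predicted models, receptors of smell and small RNAs were counted, and named only where stated. Genes with both means under the median of probe sets without a gene got no fold. Alternatives were cyclic loess or median scaling, quantile normalization (added after seeing the data), the mean over probe sets, a filter on low levels, a trended robust prior, a fit of only the arrays compared, a replicate block and leaving out each array.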

Additional observations from a re-analysis of the deposited data

Results flagged for a closer look

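Probe sets outside the gene comparison also held chamber differences. Of 1621 probe sets listed with several gene names, 17 passed in sham RV against sham LV (limma, adjusted within these probe sets), 9 higher and 8 lower in sham RV, and 366 had an unadjusted p under 0.05. Of 12146 probe sets without a listed gene, 2 passed, 1 higher and 1 lower, and 1700 had an unadjusted p under 0.05. None of them is named here.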

How the results depend on the processing

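The 82 sham calls became 324 after subtracting array medians, 871 without genes below the median level of 6.74, 723 with a trended and robust prior and 6 with only the arrays compared, and leaving out 1 array gave 0 to 252. Quantile normalization gave 83 (23 higher and 60 lower). Cyclic loess scaling moved the share of higher calls to 34.1%, against 18.3%. The 4 calls between PAC RV and TAC LV became 0 with only the arrays compared and 0 to 12 without 1 array. The 0 interaction calls became 2 and 0 to 3. The share of sham calls with the same sign between obstructed ventricles, 79.3%, became 50 with only the arrays compared and 65.85 to 100 without 1 array. An arm left with 1 array is assumed to vary like the other groups. With the replicate block, 56 genes passed in the sham comparison, 43 of them among the 82. Deviations of same-numbered arrays correlated at 0.113 between sham RV and sham LV and at -0.005 between PAC RV and TAC LV. With only 2 pairs the numbers were not taken to pair the samples. Of the single-gene values under these alternatives, 2993 kept their direction and side of the threshold, 183 lost the call, 99 gained one and 21 turned, all in genes that did not pass. Many of these settings could not turn a direction. Leaving out a PAC RV or TAC LV array left the sham difference itself unchanged. So did the level filter, the trended prior, the replicate block and the fit of only the arrays compared. Myh6 was at -0.020 and Tbx20 at -0.028 after subtracting array medians. Pdpn was at 0.011 after loess and 0.005 after quantile normalization, Prox1 at 0.098 and 0.084, and Slc4a1 at -0.014 after loess. Without 1 array, Alas2 ran from -0.490 to 0.096, Hand1 from -0.009 to 0.128, Kcna5 from -0.184 to 0.413, Krt19 from -0.039 to 0.593, Mmrn1 from -0.529 to 0.262, Myh6 from -0.004 to 0.032, Nbl1 from -0.106 to 0.308, Pdpn from -0.227 to 0.171, Prox1 from -0.101 to 0.079, Reln from -0.078 to 0.422 and Tbx20 from -0.040 to 0.051. The median of 8 of 34 lists changed sign between scalings. The cause of these shifts was not tested.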
